A study of Mus musculus with 4 samples.

Results

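Antisense genes are in most cases transcribed from the strand opposite a protein-coding gene, and 88 of the 103 described here overlap one. The 103 were chosen by annotated biotype, antisense, and a mean of 10 or more normalised counts over 4 libraries of mouse Neuro2A neuroblastoma cells. They were taken from 2419 antisense genes in a table of 49548 genes, of which 1696 antisense genes were at 0 in every library. Kcnq1ot1, Airn, Nespas and genes whose names start with Snhg were set aside by name, which removed 1 gene at this level, Snhg9 (23 and 18 in Prox1, 23 and 40 in GFP libraries). The level minimum chose the members, so their levels are given as a description. Zfp335os, Gm27003 and Gm43573 lay just inside it with a mean of 10.0, while A230072E10Rik and Gm26793 lay just outside with a mean of 9.75.

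The 2 groups were stable Neuro2A lines that carry a Tet-On (doxycycline-inducible) transgene, either Prox1, a homeodomain transcription factor, or GFP, a fluorescent protein that serves as the control, with 2 libraries each. Both lines were kept under G418 at 300 µg/mL and hygromycin B at 200 µg/mL and received doxycycline at 1 µg/mL; the duration of induction is not given in the sources used here. RNA was read at transcript 3′ ends with a QuantSeq kit on an Ion Proton sequencer. Each transgene was in its own line, so line and transgene cannot be told apart, and nothing states that replicates were separate cultures, so the p-values rest on a spread between libraries that could be technical only.

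Antisense RNAs often start near the promoter of the gene on the other strand and run away from it, or run into its 3′ end or lie inside its introns. Some act on their neighbour in cis, through transcription across it, through RNA pairing or by bringing chromatin factors to it, while many are short-lived transcripts that the nuclear RNA exosome removes. For most of the genes named here no role has been assigned, so the results are ordered by how each gene lies against its sense partner. The sense partner was the protein-coding gene on the opposite strand with the longest overlap of gene spans.

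Libraries summed to between 6798014 and 7683100 normalised counts, with an estimated 5910000 to 9600000 reads behind them, and between 18396 and 19811 genes were above 0. The antisense members held only 0.0708% to 0.0816% of these sums. Prox1 itself was at 1304 and 2505 in Prox1 cells and 2 and 3 in GFP cells (limma adjusted p 2.94e-08), with transgene and chromosomal transcripts not distinguished. All 10 neuroblastoma and sympathetic markers were above the minimum, and 8 of them passed the limma threshold as lower in Prox1 libraries (background 8.41% of tested genes; 3 passed without the variance trend), their summed level being 5531 and 5994 against 11648 and 12187. Of 6 Schwann and glial markers, 4 were at 0 in all libraries, Sox10, Gfap and Foxd3 among them, and the sum ranged from 39 to 58 in Prox1 and 13 to 30 in GFP. Mesenchymal markers summed to 5 and 38 in Prox1 and 2 and 12 in GFP, with Col3a1 and Lum at 0. Blood markers summed to 0 and 2 against 1 and 5, with Ptprc, Csf1r and Cd3e at 0, and endothelial markers to 2 and 4 against 17 and 18, with Cdh5 at 0. The part of these differences in the results was not tested.

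Antisense genes were mostly low. The median of their means was 18.5 normalised counts, 55 were under 20, and the highest, Gm26628, averaged 1030.5. In these libraries 3 reads equal 2.40 to 3.62 normalised counts, so many values below rest on a handful of reads. Replicates were correspondingly uneven: 32.0% of members differed at least 2-fold between the GFP replicates and 16.5% between the Prox1 replicates, against 6.48% and 6.95% of all tested genes.

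More antisense genes were higher than lower in Prox1 cells. limma, fitted to log2(normalised count + 1) of the 13290 genes at that level or above, passed 19 of the 103 at an adjusted p under 0.05 (18.4%), against 16.0% of all genes tested. Of these, 15 were higher in Prox1 cells (14.6%, background 7.57%) and 4 were lower (3.88%, background 8.41%). Among tested genes with a mean under 50, 7.37% were called higher and 5.39% lower, and of the 85 members in that range 11 were higher and 1 was lower. The median log2 difference of members was 0.45, and 68 were positive and 35 negative, beside a median of -0.0017 over all tested genes and 0.045 over those with a mean under 50. The minimum is on the mean over both groups. Of the members, 27 stood at 10 or more in the Prox1 mean only and 5 in the GFP mean only. Among these were 8 of the higher and 1 of the lower calls. Such members entered through the group in which they were high, so the shares called higher and lower are a description. With cyclic loess scaling 23 members passed, of which 15 were higher and the rest lower. More members were thus called lower than the 4 above, so the share of lower calls depended on the scaling. Without the variance trend 23 passed, 21 of them higher, but 5 of the 19 lost their call, 3 of these being lower ones: Gm11772, Gt(ROSA)26Sor, Gm26628, Gm36266 and E130307A14Rik.

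The 2 groups of libraries did not overlap in 44 members with higher Prox1 values (background 28.9% of tested genes) and 17 with lower ones (background 29.9%). Leaving out a library leaves 1 library in a group, which is then assumed to vary like the other group, and 0 of all 13290 genes passed the adjusted threshold in each such fit, so these fits do not set the members apart from other genes. Among the 103 members 0 passed without Prox1 replicate 1 (21 with an unadjusted p under 0.05), Prox1 replicate 2 (39), GFP replicate 1 (27) or GFP replicate 2 (33), beside 41 with all 4 libraries. In the authors' deposited table, DESeq passed 5 of the 85 members with an adjusted p (background 4.62%): 1700084E18Rik (0.0043), Gm36551 (0.0010), Gm11290 (0.0198), Banf2os (0.0251) and C130013H08Rik (0.0340). All 5 were also called by limma.

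Among other biotypes, 15.3% of 176 tested lincRNA genes and 13.8% of 109 processed transcripts were called higher, with 10.2% and 13.8% lower, and 10.9% of 101 genes of the annotation class TEC were higher with 0.99% lower. Protein-coding genes stood at 7.53% higher and 8.59% lower. The largest share of higher calls was in 43 unprocessed pseudogenes, at 20.9% with 4.65% lower. The largest share of lower calls was in 177 snoRNA genes, at 19.2% with 3.39% higher. These shares are descriptions and the differences between biotypes were not tested.

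**Figure D1:**
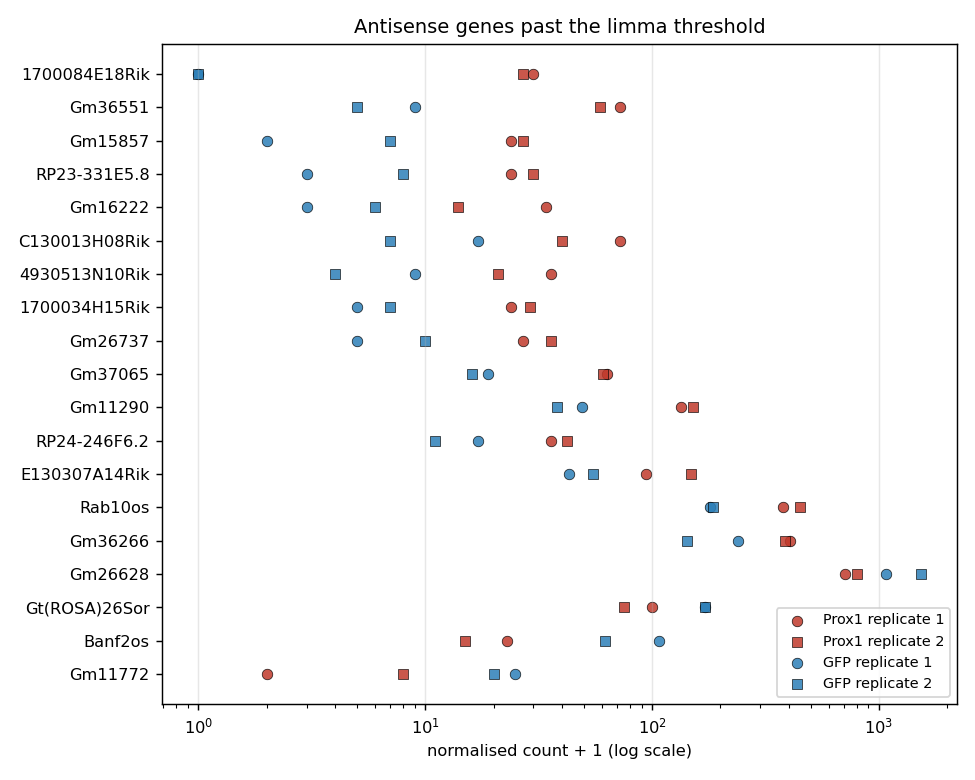
The 19 antisense genes past the limma threshold, with normalised count + 1 on a log axis; circles are replicate 1 and squares replicate 2, red Prox1 and blue GFP. In each row the red and blue points do not overlap: 15 genes have both Prox1 libraries to the right and 4, at the bottom, to the left.

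Members whose 5′ end overlaps the 5′ part of the sense gene, an arrangement called head-to-head, numbered 35. Of these, 8 were called higher and 0 lower, beside 14.6% and 3.88% of all members and 7.57% and 8.41% of all tested genes, with a median log2 difference of 0.84. Most of these 8 met the minimum only through their Prox1 libraries, so the counts and the median are a description. The difference between arrangements was not tested. Across the same arrangement the partner's start and the member's start often lay close together, and in 23 of all 88 pairs the starts were under 1000 bases apart.

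The member with the largest log2 difference was 1700084E18Rik (ENSMUSG00000100747, mm10 chromosome 2, positions 30236795 to 30238223, minus strand), which overlaps the start of Lrrc8a, the gene for a subunit of the volume-regulated anion channel. It was at 29 and 26 in Prox1 libraries, while both GFP libraries held 0. The groups did not overlap, and the ratio was at least 9.17-fold against a floor of 3 counts per library, with a log2 difference of 4.83 ± 0.83 (SE; limma adjusted p 0.00268). Lrrc8a was at 151 and 152 in Prox1 and 156 and 74 in GFP libraries and was not called (adjusted p 0.337). Overlap of the GFP and Prox1 values of the sense gene contrasted with the separated values of its antisense neighbour.

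Second was Gm36551 (ENSMUSG00000106478, chromosome 5, positions 137857045 to 137860318, plus strand), head-to-head with Pilrb1, which encodes an activating immunoglobulin-like receptor of myeloid and NK cells. Gm36551 stood at 71 and 58 in Prox1 libraries and 8 and 4 in GFP libraries, with no overlap. Its mean was 64.5 ± 9.2 against 6.0 ± 2.8 (SD, n = 2), 10.8-fold higher, with a log2 difference of 3.28 ± 0.50 (limma adjusted p 0.00132). Gm36551, like 1700084E18Rik, met the minimum only through its Prox1 libraries, so the calls of these members are not independent of it. Pilrb1 was at 0 in all 4 libraries, so the antisense gene was read where the sense gene was not detected.

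Gm37065 (chromosome 1, positions 171909957 to 171919356, minus strand) showed the same arrangement with another immune receptor gene, Slamf6, which was at 0 throughout. Its values were 62 and 60 in Prox1 and 18 and 15 in GFP libraries, with close replicates and no overlap. The mean was 3.70-fold higher (log2 difference 1.83 ± 0.40, limma adjusted p 0.00854).

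For Gm36551, 1700084E18Rik and Gm37065, and for Rab10os described further on, the promoter windows are printed because these 4 had the lowest adjusted p among called members with an entry in the RefSeq promoter table (GRCm38.p6; 250 bases before to 50 after the RefSeq start, 5′ to 3′ on the strand of the gene). Capitals mark matches, on either strand, to the GC box GGGCGG, the CCAAT box CCAAT, the TATA box TATAAA or the cyclic AMP response element TGACGTCA. Overlapping matches run together.
Gm36551, chr5:137856287-137856586 (+): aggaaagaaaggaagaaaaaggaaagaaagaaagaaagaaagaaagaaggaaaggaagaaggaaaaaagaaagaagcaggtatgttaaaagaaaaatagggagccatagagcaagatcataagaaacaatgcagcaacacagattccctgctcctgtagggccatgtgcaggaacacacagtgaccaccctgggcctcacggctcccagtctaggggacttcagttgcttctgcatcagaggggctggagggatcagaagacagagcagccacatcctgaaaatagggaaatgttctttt
1700084E18Rik, chr2:30237582-30237881 (-): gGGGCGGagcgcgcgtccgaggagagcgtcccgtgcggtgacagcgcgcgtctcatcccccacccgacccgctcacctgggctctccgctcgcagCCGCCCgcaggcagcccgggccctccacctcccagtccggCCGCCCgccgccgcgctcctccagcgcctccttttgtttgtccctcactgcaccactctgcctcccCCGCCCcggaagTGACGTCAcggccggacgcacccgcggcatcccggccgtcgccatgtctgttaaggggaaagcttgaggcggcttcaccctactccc
Gm37065, chr1:171919307-171919606 (-): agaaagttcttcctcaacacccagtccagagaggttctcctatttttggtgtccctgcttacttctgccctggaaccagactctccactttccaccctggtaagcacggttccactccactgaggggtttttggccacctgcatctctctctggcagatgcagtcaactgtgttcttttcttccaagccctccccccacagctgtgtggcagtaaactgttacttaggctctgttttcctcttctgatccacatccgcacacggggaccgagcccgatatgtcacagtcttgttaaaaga
Rab10os, chr12:3235541-3235840 (+): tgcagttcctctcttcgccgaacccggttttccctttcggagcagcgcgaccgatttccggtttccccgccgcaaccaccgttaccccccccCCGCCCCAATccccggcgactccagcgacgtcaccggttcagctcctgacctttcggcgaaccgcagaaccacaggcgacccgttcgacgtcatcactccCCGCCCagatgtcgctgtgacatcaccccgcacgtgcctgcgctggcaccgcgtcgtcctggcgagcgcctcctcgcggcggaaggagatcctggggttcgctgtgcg
The windows of 1700084E18Rik and Rab10os hold 37 and 39 CpG dinucleotides and are 73.0% and 67.3% G or C, while those of Gm37065 and Gm36551 hold 5 and 1 and are 51.3% and 45.0% G or C. 1700084E18Rik has 4 GC boxes and 1 cyclic AMP response element in its window, Rab10os has 2 GC boxes, 1 of them sharing letters with its single CCAAT box, and neither of the other windows contains any of these motifs. The RefSeq start lies 592 bases from the 5′ end in the authors' table for 1700084E18Rik, 508 for Gm36551, 287 for Rab10os and 0 for Gm37065. The window of 1700084E18Rik shares 237 bases with that of Lrrc8a on the other strand (chr2:30237519-30237818), the starts being 138 bases apart. From these RefSeq starts the 2 genes run apart without overlap, while their spans in the authors' table overlap by 509 bases.

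Over the 47 members with a RefSeq promoter, 26 contained a GC box, 19 a CCAAT box, 4 a TATA box and 1 the cyclic AMP response element. Over all 32851 promoters of the table these shares were 35.7%, 37.4%, 13.6% and 1.79%. Median G and C content was 62.0% in members and 52.7% in all promoters. A match is only a description of letters in these windows. Of 31 pairs with both promoters in the table, 4 share bases between the windows: 1700084E18Rik with Lrrc8a, 2900093K20Rik with Oser1, Gm9828 with Btf3, and Junos with Jun. Only the first of these members was called.

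C130013H08Rik (chromosome 3, positions 110250015 to 110253706, plus strand) lies head-to-head with Prmt6, which encodes an arginine methyltransferase that modifies histone H3. Its values were 71 and 39 in Prox1 and 16 and 6 in GFP libraries, which did not overlap. The mean was 5.0-fold higher (log2 difference 2.30 ± 0.53, limma adjusted p 0.0121). Prmt6 was at 704 and 798 against 1083 and 1059 and was not called (adjusted p 0.105); its values lay in the opposite order, also without overlap.

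4930513N10Rik lies against Cnot1, the scaffold of the CCR4-NOT deadenylase complex. It was at 35 and 20 in Prox1 and 8 and 3 in GFP libraries, 5.0-fold higher and without overlap (log2 difference 2.20 ± 0.63, limma adjusted p 0.0324). Cnot1 was at 2209 and 2146 against 1847 and 2737, and its groups overlapped. 1700034H15Rik, against the zinc exporter gene Slc30a1, was at 23 and 28 against 4 and 6 (log2 difference 2.16, limma adjusted p 0.0251). Slc30a1 was at 559 and 545 against 441 and 435 and was not called (adjusted p 0.296). Both 4930513N10Rik and 1700034H15Rik met the minimum only through their Prox1 libraries, so their calls are not independent of it.

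The member ENSMUSG00000110830, listed under a clone-based name, lies against Echdc1, whose enzyme removes a faulty fatty acid intermediate. It was at 23 and 29 in Prox1 and 2 and 7 in GFP libraries. It was 5.78-fold higher (limma adjusted p 0.0243), with Echdc1 at 180 and 202 against 156 and 146 and not called. Gm26737, against the ubiquitin ligase gene Rnf26, was at 26 and 35 against 4 and 9 and 4.69-fold higher (limma adjusted p 0.0241). Rnf26 (ENSMUSG00000053128, 1 of the entries with that symbol) was at 52 and 54 against 57 and 90. In both pairs the antisense groups were separate, but each antisense gene met the minimum only through its Prox1 libraries. Their calls are therefore not independent of the minimum.

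The 21 members whose 3′ part overlaps the 3′ part of the sense gene are called tail-to-tail. They had 3 higher and 1 lower call (background 7.57% and 8.41% of all tested genes) and a median log2 difference of 0.20. Rab10os (ENSMUSG00000079179, chromosome 12, positions 3235504 to 3250377, plus strand) ends inside Rab10, the gene of a small GTPase of membrane traffic to the cell surface. It was at 376 and 448 in Prox1 and 180 and 184 in GFP libraries, among the best covered members. The groups were far apart relative to their replicates, with a mean of 412 ± 50.9 against 182 ± 2.8 (SD, n = 2), 2.26-fold higher (log2 difference 1.17 ± 0.23, limma adjusted p 0.00488). Rab10 was at 589 and 688 against 699 and 497, overlapping, and was not called (adjusted p 0.779).

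E130307A14Rik (chromosome 10, positions 39621412 to 39732007, minus strand) runs 33896 bases into Traf3ip2, which encodes an adaptor of interleukin-17 receptor signalling. It was at 93 and 148 in Prox1 and 42 and 54 in GFP libraries, 2.51-fold higher without overlap (log2 difference 1.28 ± 0.33, limma adjusted p 0.0202, and 0.0646 without the variance trend). Traf3ip2 lay the other way, at 40 and 58 against 116 and 72, also without overlap but not called (adjusted p 0.0947).

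RP24-246F6.2 was picked after its values were seen; it lies in the 3′ part of Nup133, a nuclear pore gene. It was at 35 and 41 against 16 and 10 (log2 difference 1.51, limma adjusted p 0.0447), with Nup133 at 310 and 251 against 165 and 201 and not called (adjusted p 0.102). The whole of RP24-246F6.2 also lies within Gm20388, a coding gene annotated on the same strand that stood at 2006 and 1122 against 1149 and 1198, so its reads are uncertain.

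Gt(ROSA)26Sor (chromosome 6, positions 113067428 to 113077333, minus strand), the locus widely used for transgene insertion in mice, was the tail-to-tail member that was lower. Its values were 99 and 74 in Prox1 and 170 and 171 in GFP libraries. The mean was 1.97-fold lower without overlap (log2 difference -0.99 ± 0.27, limma adjusted p 0.0273, and 0.0741 without the variance trend). Its partner Thumpd3, a transfer RNA methyltransferase gene, was at 143 and 121 against 86 and 99 and was not called (adjusted p 0.225), and the annotated 3′ ends are 845 bases apart.

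Another 29 members lie wholly inside the span of the sense gene, with a median log2 difference of 0.28. Of these, 3 were called higher and 3 lower (background 7.57% and 8.41% of all tested genes). Gm36266 (chromosome 5, positions 137612852 to 137615247, plus strand) was at 404 and 386 in Prox1 and 239 and 142 in GFP libraries, 2.07-fold higher and without overlap (log2 difference 1.10 ± 0.27, limma adjusted p 0.0153, and 0.0895 without the variance trend). Its partner by length of overlap is the F-box gene Fbxo24, which was nearly silent at 4 and 1 against 0 and 1. Its first 933 bases also overlap the start of Pcolce, an enhancer of procollagen processing, which was at 40 and 42 against 112 and 117 and was called lower (log2 difference -1.46 ± 0.30, limma adjusted p 0.00713). The ratio of Gm36266 to Pcolce was higher in Prox1 cells by 2.56 ± 0.43 on the log2 scale (limma adjusted p 4.01e-04 over opposite-strand gene pairs).

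Gm16222 lies in an intron of Slc5a4b, a gene of the sodium and glucose cotransporter family. It was at 33 and 13 in Prox1 and 2 and 5 in GFP libraries, 6.57-fold higher (log2 difference 2.36 ± 0.72, limma adjusted p 0.0412). Slc5a4b was at 223 and 177 against 49 and 42, 4.40-fold higher (log2 difference 2.11 ± 0.29, limma adjusted p 0.000666). This was the only pair of 59 in which both genes were called, and neither gene's groups overlapped; with vooma weights Gm16222 just missed the threshold (limma adjusted p 0.0507). Gm15857, inside the cilium gene Wdr66, was at 23 and 26 against 1 and 6 (log2 difference 2.77 ± 0.73, limma adjusted p 0.0222), while Wdr66 was at 0 in all libraries but GFP replicate 2, where it was at 1. Gm16222 and Gm15857 met the minimum only through their Prox1 libraries. Their calls, and the count of pairs with both genes called, are therefore not independent of the minimum.

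Of the lower members inside a partner, Banf2os (chromosome 2, positions 144059138 to 144068806, minus strand) was at 22 and 14 in Prox1 and 106 and 61 in GFP libraries. It was 4.64-fold lower without overlap (log2 difference -2.13 ± 0.42, limma adjusted p 0.0051), and Banf2, a relative of a chromatin-binding barrier factor, was at 0 in all 4. Gm11772 was at 1 and 7 against 24 and 19, 5.38-fold lower (log2 difference -2.48 ± 0.76, limma adjusted p 0.0425, and 0.0675 without the variance trend), in an intron of Bahcc1, a reader of repressive histone methylation. Bahcc1 was at 37 and 36 against 16 and 20 and was not called (adjusted p 0.132), but its groups were separate in the other direction.

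Gm26628 (chromosome 6, positions 71961145 to 71963775, minus strand) had the highest level of all members and lies inside Polr1a, which encodes the largest subunit of RNA polymerase I. It was at 708 and 800 in Prox1 and 1076 and 1538 in GFP libraries, 1.73-fold lower without overlap (log2 difference -0.77 ± 0.23, limma adjusted p 0.0369, and 0.141 without the variance trend). Polr1a was at 522 and 470 against 431 and 453 (adjusted p 0.634). Gm43087, inside the co-chaperone gene Dnajb14, was at 222 and 147 against 95 and 109 and missed the threshold (limma adjusted p 0.0646), as did Gm28727, at 543 and 764 against 820 and 1131 (0.12).

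Only 3 members contain the whole partner, and 0 of them passed at an adjusted p under 0.05 (background 16.0% of all genes tested). Another 15 had no opposite-strand coding gene across their span, although 7 lay within 1000 bases of one. Gm11290, picked after its values were seen, was the only one of the 15 to be called (same background). It lies on chromosome 13 at positions 22014468 to 22015370, on the plus strand, and was at 133 and 151 in Prox1 and 48 and 37 in GFP libraries. It was 3.34-fold higher without overlap (log2 difference 1.73 ± 0.30, limma adjusted p 0.00301), and the nearest coding gene on the other strand, the protease gene Prss16, is 4726 bases away.

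**Figure D2:**
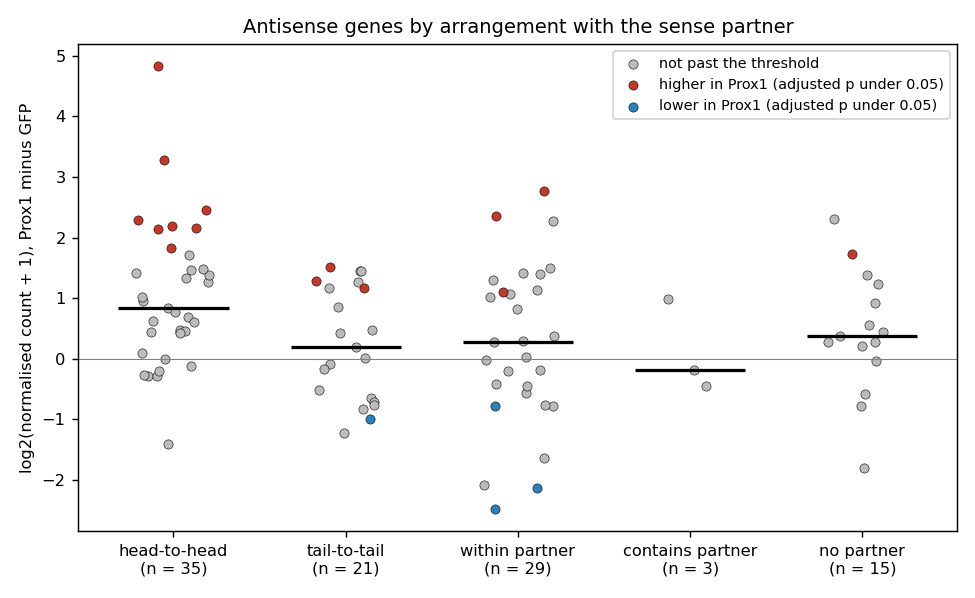
The log2(normalised count + 1) difference of each of the 103 members, Prox1 minus GFP, by arrangement with the sense partner; black bars are medians, red and blue points passed the limma threshold. The head-to-head column has 8 red and 0 blue points and a median of 0.84. Most of these red points met the minimum only through the Prox1 libraries. The median is 0.20 in the tail-to-tail column and 0.28 in the within-partner column.

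A sense partner was found for 88 members, and 59 of the partners reached a mean of 10. Of the other 29, 12 were at 0 in all 4 libraries. limma called 12 of the 59 partners (20.3%, background 16.1% of protein-coding genes), 5 higher and 7 lower in Prox1 cells. The member alone was called in 12 pairs, the partner alone in 11, both in 1 and neither in 35. With the variance trend left out of the model 3 partners were called, Abcb10 and Slc5a4b among them, while Tmem69, Nr2f1, 0610030E20Rik, Jun and Mapt were not (adjusted p 0.0525 to 0.0882).

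Members and partners differed in the same direction in 37 of 59 pairs (62.7%), against 54.6% of 1217 other opposite-strand pairs of tested genes. Across pairs the log2 differences correlated at a Pearson r of 0.30 and a Spearman rho of 0.31 (n = 59), or 0.23 and 0.28 over 58 pairs without 1 that is not reported here, against 0.15 and 0.14 in the other pairs. Points in these correlations share libraries and, if counting ignored strand, may share reads, so they are given as a description. Direction was shared in 21 of 29 head-to-head pairs, 6 of 12 tail-to-tail pairs and 9 of 17 pairs with the member inside its partner.

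**Figure D3:**
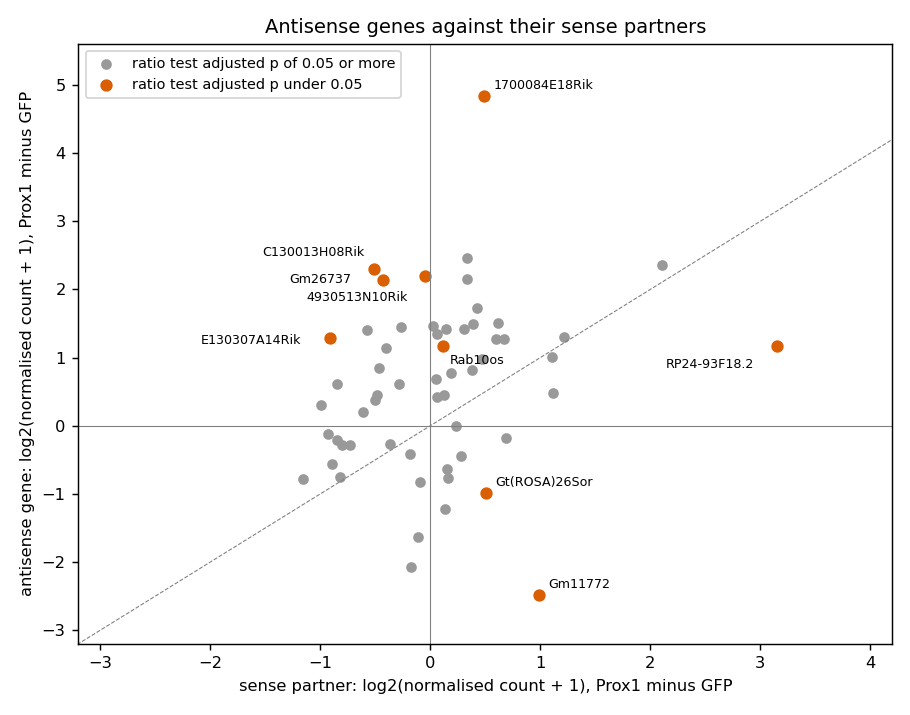
Log2(normalised count + 1) differences, Prox1 minus GFP, of 58 antisense genes (vertical axis) and their sense partners (horizontal axis); the dashed line marks equal change and orange points passed the ratio test. 1700084E18Rik stands at the top at 4.83, and RP24-93F18.2 at the right, with Abcb10 at 3.15.

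Whether a pair changed unequally was tested on the difference of log2(normalised count + 1) between its genes in each library, over all 1276 opposite-strand pairs. The ratio of antisense to sense passed in 10 of 59 pairs (16.9%, background 13.6%), 7 with a higher and 3 with a lower ratio in Prox1 cells. The higher ratios, apart from 1 not reported here, were those of 1700084E18Rik to Lrrc8a (log2 difference 4.34 ± 1.01, limma adjusted p 0.00581), C130013H08Rik to Prmt6 (2.81 ± 0.59, 0.00251), Gm26737 to Rnf26 (2.57 ± 0.64, 0.00985), 4930513N10Rik to Cnot1 (2.24 ± 0.73, 0.0446), E130307A14Rik to Traf3ip2 (2.19 ± 0.44, 0.00189) and Rab10os to Rab10 (1.06 ± 0.35, 0.0463). In these 6 pairs limma called the antisense gene and not the sense gene. Of these antisense genes, 1700084E18Rik, Gm26737 and 4930513N10Rik met the minimum only through their Prox1 libraries, so their ratios are not independent of it.

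Lower ratios were those of Gm11772 to Bahcc1 (log2 difference -3.47 ± 0.83, limma adjusted p 0.00731), Gt(ROSA)26Sor to Thumpd3 (-1.49 ± 0.38, 0.011) and RP24-93F18.2 to Abcb10 (-1.99 ± 0.66, 0.049). Gm11772 met the minimum only through its GFP libraries, so its ratio is not independent of the minimum. In the plot of paired values the lines of the 2 groups cross for Prmt6, Traf3ip2 and Thumpd3. The values of these sense genes lay in the order opposite to that of the antisense gene. The ratios to Abcb10, Cnot1 and Rab10 were near the threshold and each missed it under at least 1 other setting: with vooma weights the limma adjusted p was 0.063, 0.0518 and 0.109. With the replicate number as a block, 2 ratios passed, and with Prox1 replicate 1 left out 5 did.

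**Figure D4:**
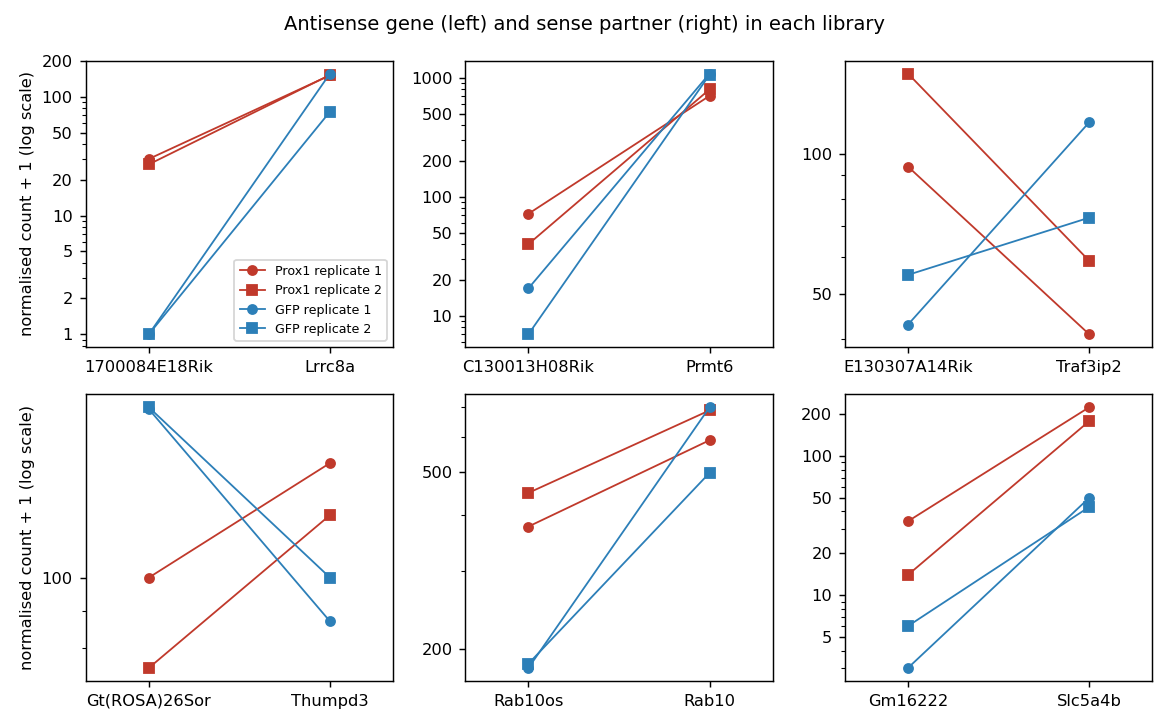
Normalised count + 1 (log axes, scaled per panel) of an antisense gene, left, and its sense partner, right, for 6 pairs; each line is a library, red Prox1 and blue GFP. For Gm16222 and Slc5a4b both red points lie above both blue points on each side, for Rab10os and Rab10 only on the antisense side, and for C130013H08Rik, E130307A14Rik and Gt(ROSA)26Sor the order of the groups reverses between sides.

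The sense genes that were called included several next to an antisense gene that was not. Abcb10, a transporter of the mitochondrial inner membrane used in haem synthesis, was at 1191 and 942 in Prox1 and 134 and 104 in GFP libraries, 8.96-fold higher (log2 difference 3.15 ± 0.23, limma adjusted p 1.31e-05). Its antisense gene RP24-93F18.2 was at 25 and 22 against 6 and 16, in the same order without overlap but not called (adjusted p 0.184). RP24-93F18.2, like RP24-246F6.2, lies wholly within Gm20388 on its own strand, so its reads are uncertain.

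Tmem69, a membrane protein gene, was at 18434 and 12090 against 6777 and 6083 and was 2.37-fold higher (log2 difference 1.22 ± 0.28, limma adjusted p 0.0119). Gm12953, which overlaps the exons of Tmem69 by 657 bases, was at 16 and 14 against 6 and 5 and was not called (ratio of means 2.73, adjusted p 0.176). Both genes had separate groups, and the ratio between them differed by 0.08 ± 0.75 on the log2 scale (adjusted p 0.948). Gm12953 was at 0.0868% and 0.116% of Tmem69 in the Prox1 libraries while GFP libraries held 0.0885% and 0.0822%, and whether its reads came from the sense strand was not tested.

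Nr2f1, an orphan nuclear receptor of neural development, was at 274 and 253 against 106 and 138 and was called higher (limma adjusted p 0.0102). Its divergent neighbour A830082K12Rik was at 24 and 23 against 13 and 21 (adjusted p 0.539). The gene 0610030E20Rik was at 280 and 234 against 127 and 110 (adjusted p 0.01), with Gm45051 at 18 and 26 against 17 and 6 (0.265). In both pairs the Prox1 values of the antisense gene were above both GFP values, and neither ratio passed.

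Jun and Mapt, named after their values were seen, were lower beside antisense genes that were not called. Jun, a transcription factor of the AP-1 complex, was at 857 and 705 against 1305 and 1679 (limma adjusted p 0.0139), while Junos was at 18 and 15 against 18 and 18 (0.888). Mapt, the gene of the microtubule protein tau, was at 1585 and 1703 against 2968 and 3134 (limma adjusted p 0.0132), and Gm11659 inside it was at 31 and 50 against 77 and 45. The ratios of these pairs did not pass (adjusted p 0.398 and 0.669).

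A930015D03Rik, also picked after its values were seen, spans several class I major histocompatibility genes of a near-identical family, whose counts are uncertain. It was at 7 and 29 against 24 and 17, while H2-T23 was at 676 and 403 against 211 and 252 (limma adjusted p 0.0103) and H2-T22 at 9 and 1 against 23 and 28 (0.0381). The antisense values overlapped between groups while the genes under them were called in opposite directions, though not without the variance trend (limma adjusted p 0.0813 for H2-T23 and 0.0832 for H2-T22).

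What the members share beyond their biotype is mostly their position. They lie on 19 chromosomes, none overlapped another on the same strand, and 102 of 103 were found in GENCODE M21, 97 with the same span. Gm11290 has another span there, and its lack of a partner and its distance to Prss16 are by the authors' span. Exons of member and partner overlap in 69 of 88 pairs, by a median of 177 bases, and in 44 pairs the 3′ end of the member, where this assay reads, falls in an intron of the partner. It falls in a partner's exon in 6 pairs and outside the partner in 38. The authors' tool used a length of exactly 1254 bases for 53 members and a whole multiple of 1254 for 77.

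Where annotated ends lie close or genes share a strand, reads cannot be assigned with certainty. In 4 pairs the 3′ ends are under 1254 bases apart, and 6 members overlap a coding gene on their own strand. Gm43079, picked after its values were seen, was at 55 and 68 against 43 and 46 beside the overlapping same-strand gene Acad9 at 63 and 76 against 48 and 50. The use of strand in counting is not given in the sources used here. Antisense and sense values are therefore uncertain wherever exons overlap, and where a member's 3′ end lies in an intron of its partner.

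Among genes that act on antisense or double-stranded RNA a minority passed the threshold. Of 24 tested genes of the nuclear RNA exosome and its adaptors, 4 were higher and 1 was lower (background 7.57% and 8.41% of all tested genes), with a median log2 difference of 0.30 against -0.0017 over all tested genes. The core subunits Exosc8 (380 and 318 against 195 and 140, limma adjusted p 0.0125) and Exosc9 (656 and 620 against 310 and 301, 0.0054) were each higher, as were Exosc1 and the cap-binding gene Ncbp2. Srrt, which links the cap-binding complex to RNA decay, was lower, at 253 and 221 against 493 and 395 (0.0186).

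Of 17 tested genes for editing, sensing or cutting double-stranded RNA, 3 were higher and 1 was lower, with the same background and a median log2 difference of 0.032. Without the variance trend Exosc9 and Ago4 passed and the other called genes of both lists did not. Ago4, an argonaute protein, was at 40 and 27 against 4 and 2, 11.2-fold higher (limma adjusted p 0.00555). Dicer1, which cuts double-stranded RNA, was at 261 and 296 against 175 and 142 (0.0369), and Drosha was also higher. Prkra, a Dicer cofactor, was lower at 227 and 260 against 445 and 500 (0.0119). Among 21 tested Polycomb and histone methyltransferase genes limma called 0 at the adjusted threshold (background 16.0% of all tested genes). Their median log2 difference was -0.21.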

How the data were processed

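RNA of Neuro2A cells with inducible Prox1 or GFP was made into QuantSeq 3′ libraries, per the labels' protocols, from RNA with an integrity number above 7; groups and replicate numbers came from sample titles. The deposited table gives log2 of a normalised count plus 1 and the authors' DESeq p-value and adjusted p-value, per the file headers. Undoing the log2 gave whole numbers (relative deviation at most 3.47e-09), so the authors had rounded normalised counts. Each sample's own file holds a deposited signal, the normalised count over a length assigned to the gene, and was used only to check the table. This length can exceed the gene's span, as for 1700084E18Rik (2508 against 1429 bases). Build mm10 and DESeq are per the submitters' processing notes; the aligner, counter and use of strand: not given in the sources used here.

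The planned count test did not apply to rounded normalised values. limma 3.58.1 (R 4.3.3; lmFit, eBayes with trend) was run on log2(normalised count + 1) of 13290 genes, two-sided, Benjamini-Hochberg, threshold 0.05, and on within-pair differences over 1276 opposite-strand pairs; it was tested on simulated data. Fold changes on this scale understate low genes, so ratios of means are printed; floors and intervals cover counting error only. Estimated size factors were 1.0194, 0.9705, 0.8291 and 1.2492, in the order Prox1 1 and 2, GFP 1 and 2. Chi-square per degree of freedom between replicates was 22.4 (Prox1) and 23.5 (GFP), above sampling noise. Exons were from GENCODE M21 and promoters from RefSeq.

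Members, lists and tests were chosen with earlier results of these data known. Named genes were called members, at most the 10 with the largest rise and 10 with the largest fall, the 5 highest means, up to 5 uncalled members with a called partner, the 5 lowest ratio p-values and their partners, and from each list up to 2 called genes in each direction; others are marked or complete a small count, and were picked after their values were seen. A few named items were left out of the text. Alternatives covered scaling, minimums, pseudocounts, variance models, partner rules, the replicate block, each library left out and the DESeq calls of the authors' deposited table.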

Additional observations from a re-analysis of the deposited data

How the results depend on the processing

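With no minimum on the mean, limma called 0 genes in all (5032 with an unadjusted p under 0.05), 0 members (36), 0 partners (23) and 1 ratio. With a mean of at least 50 it called 8 of 18 members and 3 of 9 ratios, and 6 of 9 pairs had the same sign; without members under a mean of 20, added after seeing the data, 11 of 48 members passed. Without the variance trend, 1057 genes and 3 partners passed, with 23 members (21 higher), although 5 of the 19 called members, 3 of them lower, were lost. Where the partner had to cover at least 50% of the antisense gene, 6 of 26 partners and 2 ratios passed, and 17 of 26 pairs had the same sign. The authors' deposited DESeq passed 551 genes, 5 members and 3 partners. With each library left out in turn, counts ranged from 0 to 0 for all genes (unadjusted 2365 to 2981), members (21 to 39) and partners (10 to 16), from 5 to 10 for ratios and from 33 to 39 for pairs of the same sign; a called gene whose groups do not overlap could not change sign there. With the replicate number as a block, 2528 genes, 27 members, 13 partners and 2 ratios passed and 37 pairs had the same sign; deviations of same-numbered libraries correlated at -0.051, so the numbers were not shown to pair the libraries. TMM and cyclic loess scaling, pseudocounts of 5 and 0.5, vooma weights and the partner with the highest mean kept each of these counts within 1.5 times, and no result reversed. The cause of these differences was not tested. At 2 libraries a group and a median member mean of 18.5, a member that missed the threshold was not shown to be unchanged.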
